A study of Mus musculus with 24 samples.

Results

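Alveolar macrophages that expressed an Spp1 reporter were compared between day 30 and day 14 after lung injury. The samples are the 6 libraries of EGFP+ CD11b- SiglecF+ cells from Spp1-EGFP knock-in mice given bleomycin (3 µg per g body weight) into the trachea, 3 at each day, of 24 libraries in the series. Both days carry the same reporter allele, the same agent and dose, the same gate and the same sort for EGFP, and they stand in one deposited table, so the day is the labelled difference between them. Another 2 kinds of libraries with 3 each are quoted only to place the levels: EGFP+ CD11b+ SiglecF- cells, called interstitial macrophages here, from the same knock-in at day 14 after bleomycin (same table), and EGFP+ alveolar macrophages from the knock-in at day 7 after PBS (other table). Table and treatment cannot be told apart for the PBS libraries, and no test was made against either. The labels give neither the age nor the sex of the mice, and do not say whether replicates came from separate mice, so that p-values measure only the spread between these samples, which may be technical. A reporter is a limit of the model too: EGFP+ cells were selected for transcription from the Spp1 locus, so a cell that stopped using Spp1 between the days would leave the gate, and EGFP itself was not analysed here.

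Alveolar macrophages live on the air side of the alveolus, where they clear surfactant lipid and inhaled debris and depend on GM-CSF signalling for their identity. After bleomycin the lung passes through injury and inflammation into fibrosis, and macrophages that derive from blood monocytes enter the alveolus and take on alveolar genes over time. Osteopontin, the product of Spp1, is a secreted matrix protein and integrin ligand that is made by macrophages of fibrotic lung.

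Of 14255 genes tested, 2399 (16.8%) were higher and 2222 (15.6%) lower at day 30, and 32.4% were called in either direction (edgeR quasi-likelihood test, Benjamini-Hochberg adjusted p under 0.05). The calls in the 2 directions differed in kind. Of the genes called higher, 1189 (8.34% of those tested) were at least 2-fold higher, and 888 of these had a mean under 10 CPM (counts scaled to a common library size) at day 30. Of the genes called lower, 281 (1.97%) were at least 2-fold lower. Counting only genes whose higher group reached 10 CPM, 121 were called at least 4-fold higher and 13 at least 4-fold lower. All 3 day 30 libraries lay above all 3 day 14 libraries in 23.5% of the genes tested, and below them in 22.1%. Levels are normalised CPM, which use the library sizes of the test, means are ± SD with n = 3 libraries per group, and a fold change is given with the SE of its log2. Libraries held 13450053 to 16474795 counts. Genes with at least 1 count numbered 18644 to 18920 at day 14 and 19870 to 20255 at day 30. Libraries of one day correlated at 0.988 to 0.992 (Pearson's r of log2 values across genes), and libraries of different days at 0.959 to 0.965. Among fits that left out 1 library, the one without replicate 3 of day 30 gave the fewest calls, 1819 higher and 1469 lower. Adding the interstitial macrophages of the table, with 1 estimate of spread shared by the 9 libraries (the 9-library fit), gave 1764 higher and 1423 lower. It ended the calls of Alas1, Apoe, Bhlhe40, Cd74, Ctss, Dcstamp, Dhcr7, Itgax, Lipa, Mmp12, Pkm and Psap among the genes named by rule whose values follow. Calls of other single genes were not followed through the alternative fits. Among these are Adgre1, Car4, Csf1, Fosb, Gpnmb, H2-Aa, Hsp90aa1, Jun, mt-Rnr1 and mt-Rnr2.

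**Figure D1:**
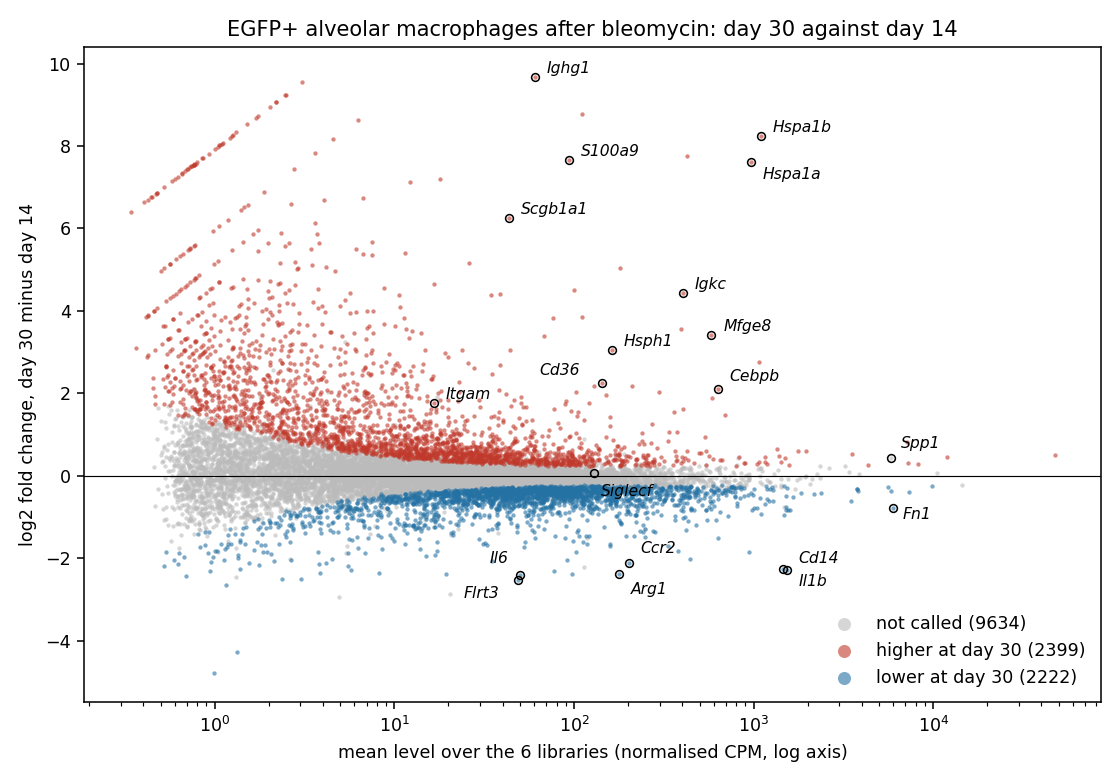
Each point is a gene tested, placed by its mean level over the 6 libraries (x axis, normalised CPM, log axis) and by its log2 fold change between day 30 and day 14 (y axis), with genes called higher in red (2399) and lower in blue (2222). Hspa1a and Hspa1b stand out on the higher side at 7.62 and 8.24, and Il6, Arg1, Il1b and Cd14 lie between -2.40 and -2.26 on the lower side.

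The direction of the calls differed with the base composition of the transcripts. Among 8785 genes at 10 CPM or more, cut into 5 equal bins by GC content, the bin of lowest GC (29.9% to 44.8% GC) held 101 higher and 605 lower calls, and that of highest GC (56.4% to 75.9%) held 426 higher and 226 lower. The median log2 fold change was -0.21 in the bin of lowest GC and 0.08 in that of highest GC. With the trend of log2 CPM on GC content removed from each library, an alternative chosen after seeing the data, the bin of lowest GC held 228 higher and 242 lower and that of highest GC 310 higher and 311 lower. Over all genes that fit called 2611 higher and 1622 lower, and it kept 3735 of the 4621 calls (80.8%), with 0 in the opposite direction. Lists whose counts this alternative moved by over 1.5 times are named with their values.

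**Figure D2:**
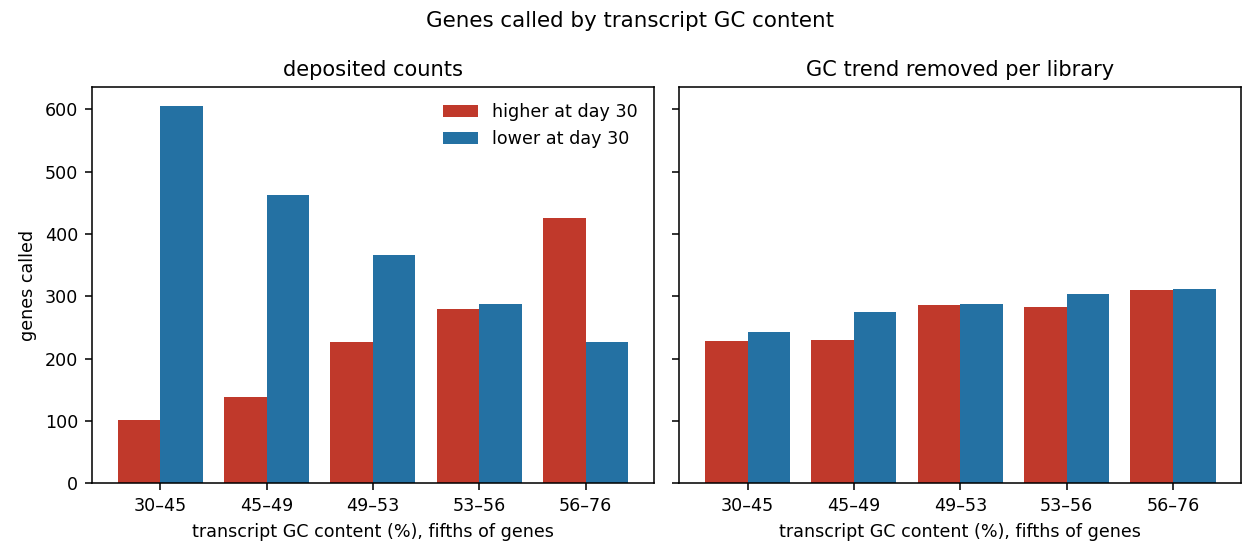
Bars count the genes called higher (red) and lower (blue) at day 30 in 5 equal bins of transcript GC content (x axis, percent), from the deposited counts on the left and with the GC trend removed per library on the right. The lower calls decline from 605 to 226 from the lowest to the highest bin on the left, and run between 242 and 311 on the right.

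Many markers of other cells of the lung were higher at day 30, and they made up 9 of the 15 genes with the largest rise among those at 10 CPM or more. These are the immunoglobulin genes Ighg1, Ighg2c, Iglc1 and Iglc2, the neutrophil genes S100a9, Mmp9 and Retnlg, the club cell gene Scgb1a1 and the globin gene Hbb-bs. The other 6 are Hspa1a, Hspa1b, Hspb1, Asprv1, H2-Q10 and Pla2g2d. S100a9, a subunit of calprotectin in neutrophils, had 1.18, 0.371 and 1.15 CPM at day 14 and 168, 205 and 188 CPM at day 30. Scgb1a1, the secretoglobin of club cells, had 0.830, 1.56 and 1.02 CPM and then 67.9, 103 and 87.8 CPM. Ighg1, an immunoglobulin heavy chain gene, had 0.208, 0.148 and 0.0679 CPM and then 86.7, 145 and 133 CPM. In each of the 3 genes every day 30 library lay far above every day 14 library. Reads of immunoglobulin constant genes and of the globin copies can be split or shared between near-identical genes, so single members are uncertain.

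Whole lists moved with them. Of the neutrophil markers 12 of 13 tested were higher, and their sums ran from 96.2 to 123 CPM at day 14 and 568 to 663 CPM at day 30. Ly6g, a defining neutrophil marker, had 0 counts at day 14 and 27 at day 30, and Camp 0 and 117. All 11 B cell markers were higher (63.5 to 77.1, then 1145 to 1570 CPM), as were 12 of 13 T cell markers (52.2 to 84.0, then 165 to 184 CPM), 6 of 8 NK cell markers (9.95 to 10.3, then 32.7 to 41.3 CPM) and 6 of 10 dendritic cell markers (30.1 to 38.9, then 76.8 to 81.5 CPM). Fibroblast and mural cell markers were higher in 10 of 11 (8.46 to 15.6, then 87.4 to 97.3 CPM), with Col1a1, a chain of type I collagen, at 1.18, 0.965 and 0.747 CPM and then 18.6, 21.1 and 20.9 CPM. Endothelial markers were higher in 5 of 7 and lower in 1 (0 lower without replicate 1 or 2 of day 14 or replicate 2 or 3 of day 30, in the 9-library fit and with the GC trend removed), and all 3 red cell markers tested were higher (0.520 to 2.24, then 19.9 to 29.5 CPM). Alveolar type 2 markers were higher in 6 of 9 and lower in 1, with a summed level of 214 to 228 and then 234 to 259 CPM. That sum changed little although the median log2 fold change of the members was 3.84. Sftpc, Sftpb and Sftpa1 had log2 fold changes of 3.84, 4.42 and 4.15, and Napsa one of -0.88. Markers of alveolar type 1, club and ciliated cells were higher in 5 (3 in the 9-library fit) and lower in 4 of 10. Their sum did not rise with Scgb1a1, at 437 to 476 CPM and then 409 to 468 CPM. The eosinophil and mast cell lists had 2 testable members each, with 1 higher in each list. These were Prg2 and Gata2, with log2 fold changes of 4.80 and 4.35. Epx, Prg3, Gata1 and Fcer1a had 0 counts at both days. Tpsb2, Mcpt8 and Mcpt4 of the mast cell and basophil list had 0 counts at day 14 and 12, 4 and 3 at day 30. The eosinophil list summed to 85.4, 17.9 and 7.47 CPM at day 14 and 6.79 to 9.21 CPM at day 30. Nearly all of it was Ear6, a ribonuclease gene with close copies that alveolar macrophages express too (84.6, 17.2 and 6.52 CPM, then 5.71, 5.45 and 3.55 CPM, adjusted p = 0.145), which was called lower without replicate 1 of day 14. In the PBS alveolar macrophages B cell markers summed to 1808 to 2075 CPM, above day 30, and fibroblast markers to 15.4 to 21 CPM, below it. Xist had 0 counts in all 6 libraries, and of 4 Y-linked genes Ddx3y and Eif2s3y were lower at day 30, Eif2s3y not with the GC trend removed (adjusted p = 0.201). The part of these cells in the changes below was not tested. Some genes for which they are a known source are marked as such. Not every such gene is marked, so the lack of a mark does not assign a gene to macrophages.

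**Figure D3:**
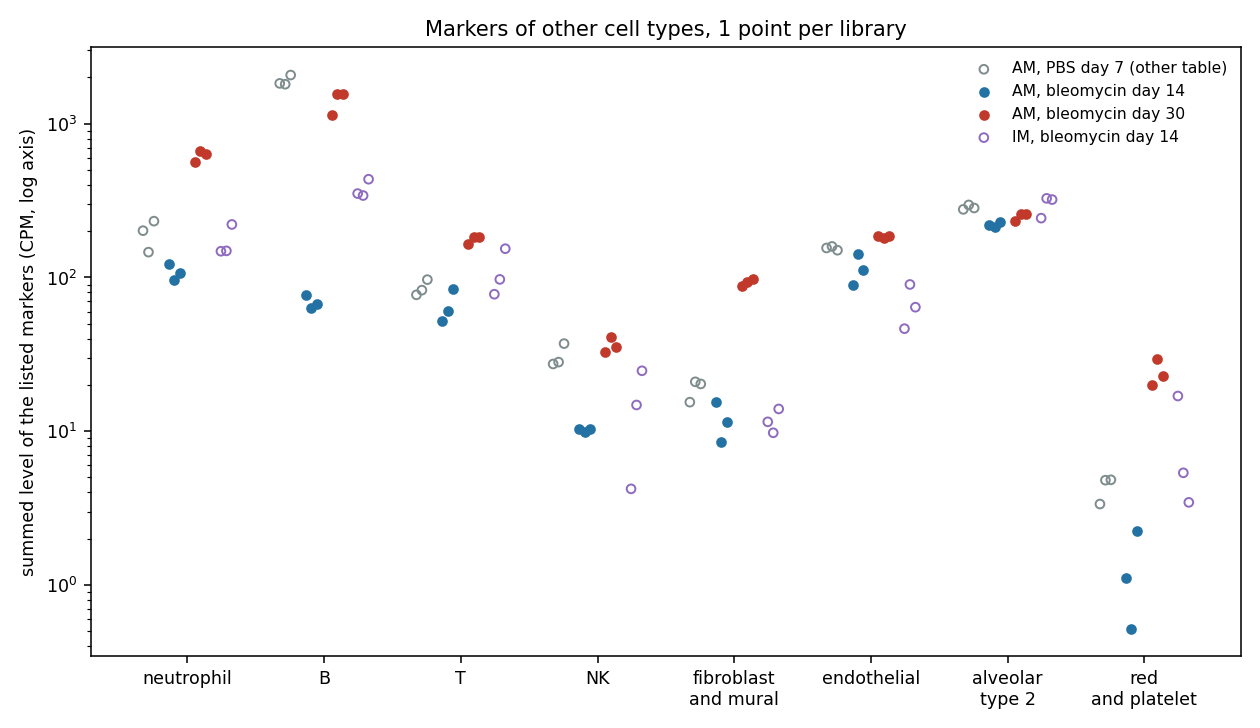
Points give the summed level of the markers of 8 other cell types (x axis) in each library (y axis, CPM, log axis), for alveolar macrophages (AM) at day 14 (blue) and day 30 (red), and, as open points, for PBS alveolar macrophages and day 14 interstitial macrophages (IM). The day 30 points lie above the day 14 points for all 8 lists, by most for B cell, fibroblast, neutrophil and red cell markers and by least for alveolar type 2 markers. The alveolar type 2 sum mixes members that rose strongly with members that did not rise. The lists of alveolar type 1, club and ciliated cells and of eosinophils, whose sums overlapped between the days, are not shown.

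The genes behind the reporter and the gate did not move as one. Spp1 (ENSMUSG00000029304, GRCm38 chromosome 5, 104435118 to 104441050, plus strand) had 6580.4, 4300.4 and 3887 CPM at day 14 and 6769, 6623 and 6637 CPM at day 30. The 3 day 30 libraries lay close together and just above replicate 1 of day 14, while replicates 2 and 3 of day 14 were lower. The log2 fold change of 0.44 ± 0.17 did not pass the test (adjusted p = 0.0717), and passed it without that replicate (adjusted p = 3.67e-06) and with the GC trend removed (adjusted p = 0.0156). Siglecf, the gate's lectin, had 111, 133 and 132 CPM and then 135, 131 and 129 CPM, with the groups overlapping (adjusted p = 0.618). Its mean in interstitial macrophages was 7.42 CPM. Itgam, the CD11b gene that the gate excludes, had 9.75, 5.64 and 7.13 CPM and then 22.4, 30.4 and 23.9 CPM, and rose 3.40-fold without overlap (log2 1.76 ± 0.19, adjusted p = 2.79e-06), to a level below the 224 CPM of interstitial macrophages. Neutrophils and monocytes carry Itgam as well, and the neutrophil sums given above moved with it. Of a list of 10 reporter and sort genes, which is wider than the labelled sort for EGFP, CD11b and SiglecF, 3 were higher and 4 lower. Without replicate 1 of day 30 the counts were 1 higher and 2 lower, without replicate 2 of day 30 1 and 1, and in the 9-library fit 1 and 1. The lower count was also 1 without replicate 3 of day 30, with the GC trend removed and with library totals alone. Itgax, the CD11c gene of alveolar macrophages, had 847, 1291 and 1312 CPM and then 1605, 1666 and 1562 CPM (adjusted p = 0.0176), a call lost without replicate 1 or replicate 2 of day 30. Adgre1, the F4/80 gene, fell from 434 ± 35.3 to 358 ± 4.28 CPM (adjusted p = 0.0266).

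Surface and lipid genes of alveolar macrophages shifted in both directions, with 8 of 23 higher and 5 lower at a median log2 fold change of 0.07, beside 0.01 over all genes. Without replicate 2 or replicate 3 of day 30, with the GC trend removed or in the 9-library fit, the lower calls were 3. Krt19, a keratin that resting alveolar macrophages express, had 55.3, 59 and 47.4 CPM and rose to 151, 153 and 168 CPM, without overlap (log2 1.55 ± 0.10, adjusted p = 7.11e-09). Ear1, an eosinophil-type ribonuclease gene with close copies in the genome, rose from 56.1 ± 11.4 to 152 ± 8.68 CPM, and the keratin gene Krt79 rose from 32.5 ± 4.71 to 61.2 ± 5.51 CPM. All 3 stayed below the means after PBS, which were 925, 538 and 938 CPM. Car4, a membrane carbonic anhydrase, fell from 644 ± 95.6 to 391 ± 12.2 CPM (adjusted p = 5.8e-05), and Il1rn, the interleukin-1 receptor antagonist, from 508 ± 43 to 299 ± 9.86 CPM (adjusted p = 8.63e-06).

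Replicate 1 of day 14 stood apart in several of these genes, as in Ear6 above. Marco, a scavenger receptor, had 713, 235 and 112 CPM at day 14 and 146, 142 and 146 CPM at day 30. The first value was the outlying one and the day 30 values lay between those of replicates 2 and 3 (adjusted p = 0.286). Chil3, a chitinase-like lectin, had 22017, 11829 and 13035 CPM and then 12484, 14356 and 13279 CPM (adjusted p = 0.516), and Mrc1, the mannose receptor gene, 2557, 1791 and 1222 CPM and then 1154, 1037 and 1089 CPM (adjusted p = 0.0761). Mrc1 passed the test without replicate 1 (adjusted p = 0.0246) or replicate 3 of day 14 (adjusted p = 8.5e-05), and also with DESeq2 (0.0462), a non-robust fit (0.00586) or the PBS libraries in the fit (0.0286). Fabp4, a fatty acid binding protein, had 130.0, 65.6 and 42.3 CPM and then 138, 153 and 151 CPM (adjusted p = 0.221), and Pparg, the nuclear receptor of alveolar macrophage identity, 169, 176 and 169 CPM and then 163, 151 and 159 CPM (adjusted p = 0.315). Neither passed the test, although the groups did not overlap: Fabp4 was spread over the day 14 libraries and the Pparg groups lay close together.

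Of 16 transcription factors and cytokine receptors of alveolar macrophages, 4 were higher and 3 lower, or 5 lower without replicate 1 of day 14 and 1 in the 9-library fit. Cebpb, a bZIP factor of macrophages and neutrophils, had 236, 269 and 206 CPM at day 14 and 950.4, 1076 and 1053 CPM at day 30. Every day 30 library held over 3 times the highest day 14 value (log2 2.11 ± 0.11, adjusted p = 2.82e-10). Its mean after PBS was 1324 CPM. Bhlhe41, a repressor that maintains alveolar macrophage identity and self-renewal, rose from 57.5, 57.9 and 49.4 CPM to 197, 176 and 186 CPM without overlap (log2 1.76 ± 0.10, adjusted p = 9.49e-10). Its partner Bhlhe40 fell 1.38-fold, and Klf4, a monocyte and macrophage factor, fell 2.09-fold. The GM-CSF receptor gene Csf2rb had 867 ± 75.4 and then 745 ± 40.0 CPM (adjusted p = 0.086, and 0.00941 without replicate 1 of day 14).

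Genes of monocytes and recruited macrophages split, with 8 of 19 lower and 5 higher. Without replicate 1 or replicate 2 of day 30, or in the 9-library fit, the lower calls were 5. Ccr2, the receptor that draws monocytes to tissue, had 232, 322 and 427 CPM at day 14 and 63.3, 78.8 and 85.9 CPM at day 30. Every day 30 value lay below the lowest day 14 value (log2 -2.11 ± 0.23, adjusted p = 0.000478), and above the 17.7 CPM after PBS. Ms4a6c, a membrane gene of monocyte-derived cells, fell from 240.1 ± 28.2 to 76 ± 6.25 CPM. Plac8, which circulating neutrophils and lymphocytes also express, rose from 1.25 ± 0.805 to 31.9 ± 3.82 CPM. Among 15 resident interstitial macrophage genes 7 were higher and 1 lower (2 without replicate 3 of day 14, 0 in the 9-library fit). The summed level of the list went the other way, with 1992 to 2334 CPM at day 14 and 1429 to 1507 CPM at day 30. Gas6, a ligand of the TAM receptors, rose at a low level, from 0.960 ± 0.373 to 8.30 ± 0.692 CPM, against 41.2 CPM in interstitial macrophages.

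Genes of lipid-associated macrophages moved in one direction: 14 of 24 were higher and 0 lower (median log2 fold change 0.46). Leaving out 1 library in turn gave 11 (without day 30 replicate 2) to 18 (without day 14 replicate 1) higher, and the 9-library fit gave 8. Gpnmb, a glycoprotein of lipid-laden phagocytes, had 478, 369 and 256 CPM at day 14 and 1037, 1015 and 1018 CPM at day 30. The day 30 values were tightly grouped and over 2 times the highest day 14 value (log2 1.48 ± 0.20, adjusted p = 0.000652). Cd36, a receptor for oxidised lipid and long-chain fatty acids, had 53.9, 58.9 and 36 CPM and then 267, 222 and 219 CPM, again without overlap, and lung endothelium also expresses it (log2 2.25 ± 0.16, adjusted p = 1.21e-06). Mmp12, the macrophage elastase, had 228, 288 and 217 CPM and then 508, 501 and 509 CPM, a 2.07-fold rise (adjusted p = 1.18e-06). Its mean was 17.3 CPM after PBS and 1438 CPM in interstitial macrophages. Trem2, the lipid-sensing receptor, rose from 195 ± 14.6 to 340.1 ± 26.6 CPM, the lipid carrier Fabp5 from 368 ± 58.6 to 702 ± 18.3 CPM, and Apoe, the apolipoprotein of cholesterol export, from 1540.0 ± 97.9 to 2351 ± 267 CPM. Plin2, which coats lipid droplets, did not pass the test (1385, 916 and 922 CPM, then 1149, 1168 and 1177 CPM, adjusted p = 0.561), but did without replicate 1 of day 14 (adjusted p = 0.00171).

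Mfge8 showed the largest rise among genes of dying-cell uptake. This bridge between phosphatidylserine on dying cells and integrins of the phagocyte (GRCm38 chromosome 7, 79133768 to 79149060, minus strand) had 103, 106 and 90.2 CPM at day 14 and 1027, 1106 and 1059.8 CPM at day 30. Each day 30 library held close to 10 times the day 14 level (10.7-fold, log2 3.41 ± 0.10, adjusted p = 2.47e-13), and the means after PBS and in interstitial macrophages were 33.6 and 209 CPM. Fibroblasts and epithelial cells are known to express Mfge8 too. Of the 23 genes of this list 5 were higher and 8 lower. The lower calls were 4 without replicate 3 of day 30 and 5 with the GC trend removed, and the higher calls were 8 without replicate 3 of day 14. Havcr2, the gene of the phosphatidylserine receptor TIM-3, fell from 198 ± 25.7 to 120.3 ± 4.96 CPM. Msr1, the class A scavenger receptor, fell from 324 ± 31.4 to 172 ± 12.9 CPM (adjusted p = 2.79e-06), in a list of 12 scavenger receptors with 3 higher (5 without replicate 1 of day 14, 6 without a filter on low counts) and 3 lower (5 with the PBS libraries in the fit).

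Lysosomal hydrolases and membrane proteins were higher in 14 of 42 and lower in 9, but in 6 and 3 without replicate 2 of day 30 and 8 and 4 without replicate 3, and lower in 5 without replicate 1 of that day. The 9-library fit gave 5 and 2, and library totals alone 4 lower. Ctsd, the aspartic protease cathepsin D, had 5723, 4588 and 5149.6 CPM and then 8548, 9569 and 9348 CPM, with no overlap (log2 0.83 ± 0.10, adjusted p = 7.9e-06). Psap, the precursor of the saposins that assist lipid hydrolysis, rose from 10030.2 ± 465 to 13747 ± 440.2 CPM, Ctsb from 2902 ± 95.1 to 4177 ± 111 CPM, and the acid lipase Lipa from 977 ± 93 to 1335 ± 21.4 CPM. The cysteine proteases Ctsc and Ctss went the other way, from 1986 ± 201 to 1113 ± 36.3 CPM and from 8280.3 ± 195 to 6285 ± 101 CPM (adjusted p = 4.46e-06 and 0.00185). The proton pump and its MiT/TFE regulators had 3 of 21 higher and 3 lower, 14.3% each way and near the 16.8% and 15.6% over all genes. The higher calls were 0 without replicate 2 or without replicate 3 of day 30, and 1 without replicate 1 of day 30 or in the 9-library fit. They were 5 with the PBS libraries in the fit, and 6 without replicate 1 of day 14, with the GC trend removed or with library totals alone.

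Lipid metabolism genes were called in both directions. Fatty acid uptake, storage and oxidation had 6 of 34 higher (17.6%) and 7 lower (20.6%), near the 16.8% and 15.6% over all genes. Mgll, monoglyceride lipase, had 94.1, 109 and 85.9 CPM and rose to 233, 213 and 221 CPM (log2 1.21 ± 0.10, adjusted p = 1.24e-07). Pdk4, the kinase that turns off pyruvate dehydrogenase, rose from 4.15 ± 1.61 to 24.3 ± 3.75 CPM, below the 136 CPM after PBS. Hilpda, a lipase inhibitor on lipid droplets, fell from 252 ± 46.1 to 114 ± 3.85 CPM. Cholesterol efflux and oxysterol receptor genes were higher in 7 of 17 (3 in the 9-library fit) and lower in 2 (1 without replicate 1 or replicate 3 of day 30, in the 9-library fit or with library totals alone), with Ch25h, cholesterol 25-hydroxylase, up 1.73-fold. Cholesterol synthesis was called in 3 of 23 each way (13%, near the background), with 6 lower without replicate 1 of day 14 and 5 higher with the GC trend removed. Dhcr7, a late enzyme, rose 1.41-fold. Fatty acid synthesis had 4 of 13 higher and 1 lower (2 without replicate 1 of day 14), with the desaturase Scd1 up from 19.5 ± 2.54 to 57.1 ± 0.806 CPM.

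**Figure D4:**
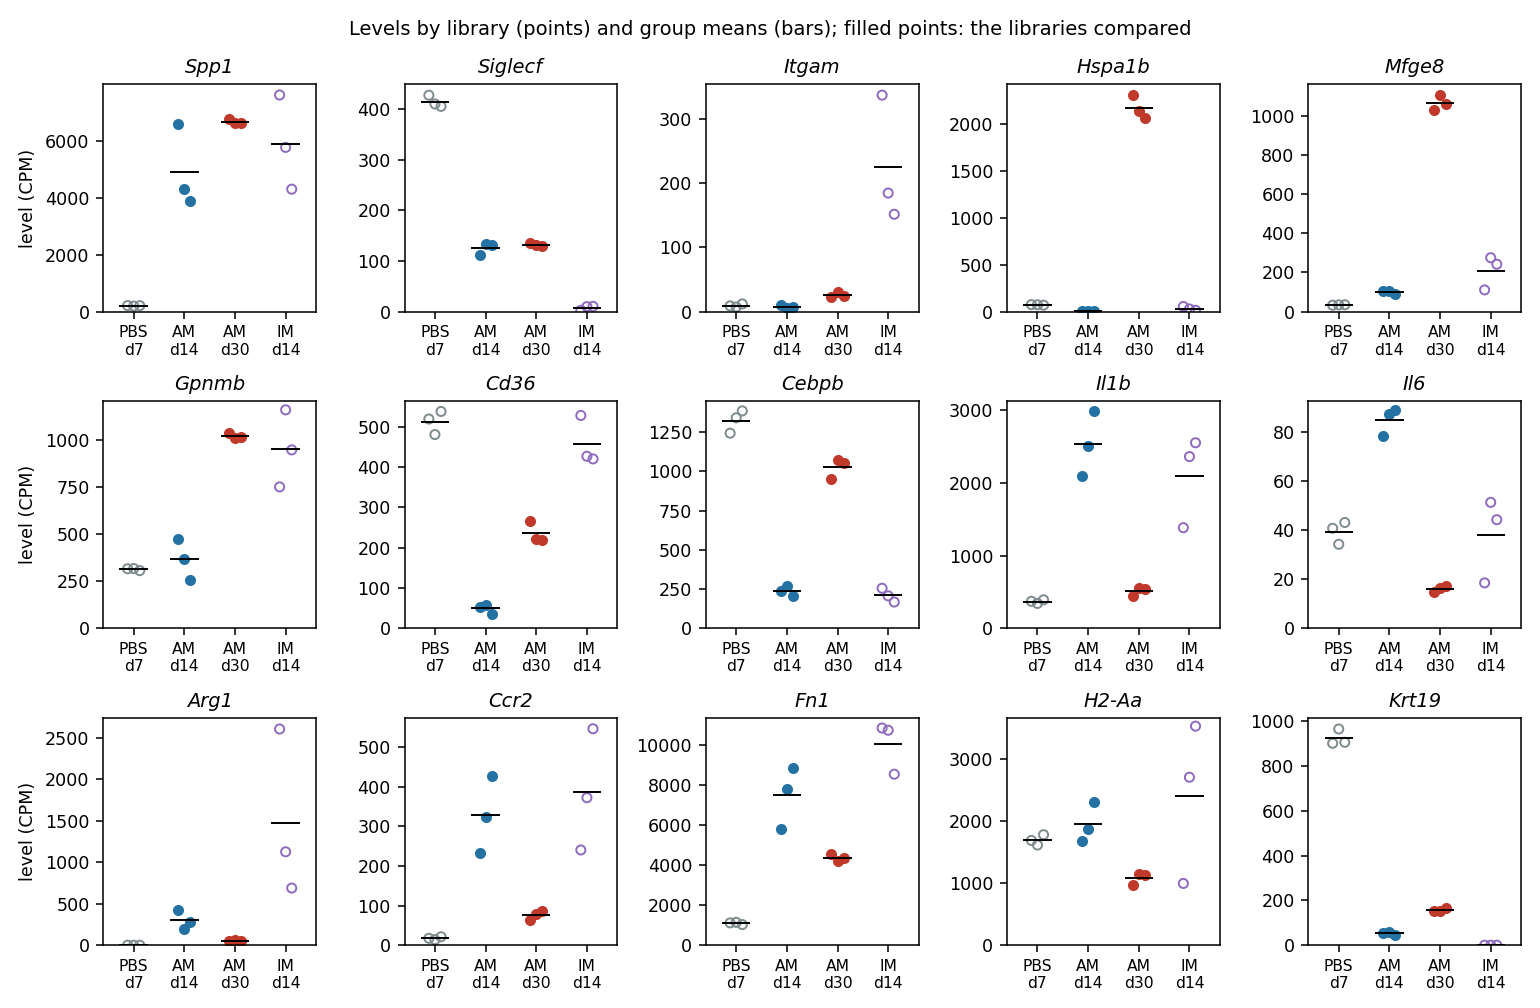
Each panel shows 1 gene, with CPM on the y axis and 1 point per library for PBS alveolar macrophages (day 7), alveolar macrophages (AM) at days 14 and 30 and interstitial macrophages (IM) at day 14, and bars for group means. Filled points are normalised CPM of the 6 libraries compared and open points are CPM of the total count. Mfge8, Hspa1b, Cd36, Cebpb and Gpnmb are higher and Il1b, Il6, Arg1, Ccr2, Fn1 and H2-Aa lower at day 30 in all 3 libraries, while Siglecf overlaps.

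Inflammatory cytokines and feedback genes of the NF-kB pathway leaned lower, with 15 of 34 lower and 7 higher (4 in the 9-library fit, median log2 fold change -0.30). Il1b, which encodes interleukin-1 beta, had 2098, 2505 and 2990.0 CPM at day 14 and 449, 558 and 545 CPM at day 30. The lowest day 14 library held over 3 times the highest day 30 library (log2 -2.29 ± 0.13, adjusted p = 4.39e-09), and the mean after PBS was 369.5 CPM. Il6, the gene of interleukin-6, had 78.4, 87.1 and 88.7 CPM and then 14.8, 16.2 and 17.1 CPM (log2 -2.40 ± 0.11, adjusted p = 8.12e-11). Nlrp3, the inflammasome sensor, fell from 509.9 ± 55.2 to 156 ± 2.87 CPM, and the neutrophil-attracting chemokine genes Cxcl1 and Cxcl2 fell from 178 ± 18.4 to 64.7 ± 3.88 CPM and from 942 ± 137 to 329.8 ± 16.2 CPM. Members that rose include Ccl3, a chemokine gene, from 27.9, 27.6 and 26.2 CPM to 68.8, 70.1 and 75.9 CPM (adjusted p = 2.17e-08), and Csf1, the macrophage growth factor gene, from 2.76 ± 0.606 to 16.8 ± 2.64 CPM. Among all CC and CXC chemokine genes 11 of 21 were higher (6 in the 9-library fit) and 7 lower. Ccl5 rose from 6.67 ± 0.950 to 23.6 ± 2.20 CPM, and T and NK cells express it as well.

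The promoters of Il6 and Cxcl2, members that fell together, are shown because both hold a sequence of the NF-kB type. Each is the 250 bases before the RefSeq start (GRCm38.p6), 5′ to 3′ on the gene's strand, with matches to GGGNNNTTCC on either strand in capitals. Il6 lies at chr5:30012864-30013113 (plus strand) and has 1 match, which begins 44 bases before the start. Cxcl2 lies at chr5:90903649-90903898 (plus strand) and has 3 matches, which begin 97, 96 and 78 bases before the start, the first 2 overlapping.
Il6: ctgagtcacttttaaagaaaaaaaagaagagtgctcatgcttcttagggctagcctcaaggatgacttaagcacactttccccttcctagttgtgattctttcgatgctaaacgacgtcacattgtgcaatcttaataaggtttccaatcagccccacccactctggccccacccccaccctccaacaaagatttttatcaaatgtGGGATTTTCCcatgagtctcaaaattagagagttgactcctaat
Cxcl2: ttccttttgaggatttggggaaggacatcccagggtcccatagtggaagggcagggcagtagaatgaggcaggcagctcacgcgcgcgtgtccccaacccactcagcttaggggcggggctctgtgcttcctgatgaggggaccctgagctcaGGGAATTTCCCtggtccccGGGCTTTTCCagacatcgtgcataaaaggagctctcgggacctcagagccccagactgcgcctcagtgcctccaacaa
Of 32851 promoter windows of this length 4.65% held a match. In the list, 7 of the 14 lower members with a window held one (Il6, Cxcl1, Cxcl2, Cxcl3, Nfkbia, Tnfaip3 and Il1rn), as did 1 of 4 higher members and 2 of 6 that were not called. The list was put together in part as feedback genes of the NF-kB pathway, so these shares are no independent support. A listed gene counts with a match in any of its windows, while the 4.65% is of single windows. A match describes the letters and not binding of a factor.

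Pattern receptors were lower in 15 of 31 (9 in the 9-library fit) and higher in 6 (median log2 fold change -0.30). Cd14, the co-receptor for lipopolysaccharide and a monocyte marker, had 2569, 2172 and 2466 CPM and then 480.3, 504 and 518 CPM. All day 30 libraries lay far below the lowest day 14 library (log2 -2.26 ± 0.10, adjusted p = 3.22e-11), and below the 966 CPM after PBS. Tlr2, the lipopeptide receptor, fell from 1449.7 ± 139.7 to 757 ± 1.56 CPM, Clec4e, the receptor Mincle, from 291 ± 29 to 151 ± 20.6 CPM, and Nod2, a sensor of bacterial cell wall, from 31.1 ± 6.50 to 11.4 ± 0.722 CPM. Fc receptor and Trem genes had 8 of 25 each way, with 5 lower without replicate 1 of day 30, and 5 higher and 4 lower in the 9-library fit. Fcgr2b, the inhibitory Fc receptor, fell from 702, 626 and 788 CPM to 159, 177 and 188 CPM (log2 -2.02 ± 0.11, adjusted p = 4.46e-10), without overlap. Trem1, an amplifier of inflammatory signals, fell 3.56-fold to 167 ± 2.47 CPM while Trem2 rose, as given above.

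Of 20 MHC class II and costimulation genes, 10 were lower and 5 higher (median log2 fold change -0.45), but 3 and 3 in the 9-library fit. The higher calls were 3 without any 1 of the day 30 libraries. The alpha chain gene H2-Aa had 1670.3, 1871 and 2294 CPM and then 972, 1149 and 1131 CPM, without overlap (adjusted p = 2.99e-05), and Cd74, the invariant chain, fell from 4216 ± 753 to 2747 ± 285 CPM. The costimulatory genes Cd86 and Cd80 fell 2.56-fold and 2.46-fold, with Cd86 at 33.9 ± 3.85 CPM at day 30. H2-Ob, which B cells express, rose from 2.67 ± 0.731 to 17.9 ± 2.49 CPM. Complement genes were lower in 9 of 21 and higher in 6. C4b had 291, 181 and 256 CPM and fell to 65.2, 78.7 and 79.1 CPM (log2 -1.71 ± 0.16, adjusted p = 7.97e-06). Its mean after PBS was 4.89 CPM.

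Matrix and growth factor genes changed often and in both directions, with 14 of 33 higher and 12 lower. Fn1, the gene of fibronectin, had 5829, 7832 and 8851 CPM at day 14 and 4547, 4238 and 4379 CPM at day 30, with the groups apart (log2 -0.77 ± 0.12, adjusted p = 0.000243) and a mean of 1101 CPM after PBS. Tgfbi, a matrix protein induced by TGF-beta, fell from 1906 ± 266 to 1118 ± 50.6 CPM. Areg, the EGF receptor ligand amphiregulin, had 137, 182 and 169 CPM and then 27.4, 36.1 and 29.5 CPM (log2 -2.39 ± 0.13, adjusted p = 8.11e-10), and Vegfa fell 1.97-fold. Members that rose beside Mmp12 include Mmp2, from 2.32 ± 0.433 to 15.7 ± 0.124 CPM, Sparc, from 3.89 ± 0.356 to 21 ± 1.77 CPM, and Mmp9, from 0.236 ± 0.0527 to 35.9 ± 3.43 CPM. Fibroblasts express Mmp2 and Sparc and neutrophils Mmp9, and the sums of both cells' markers moved with them.

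Arginine and alternative activation genes were lower in 6 of 23 and higher in 4 (1 in the 9-library fit), with 10 lower without replicate 3 of day 14. The higher calls were 17.4% and the lower calls 26.1%, beside 16.8% and 15.6% over all genes. Arg1, which encodes arginase 1, had 421, 195 and 282 CPM and then 51.6, 64 and 55.3 CPM. The day 14 libraries differed by over 2 times among themselves and lay above all day 30 libraries (log2 -2.39 ± 0.31, adjusted p = 0.003). The mean was 1475 CPM in interstitial macrophages and 0.643 CPM after PBS. Odc1, the first enzyme of polyamine synthesis, rose from 146 ± 8.74 to 208 ± 8.50 CPM. Dcstamp, a gene of macrophage fusion, had 34.9, 44.4 and 18.3 CPM and then 6.65, 5.70 and 6.27 CPM (adjusted p = 0.000664), and Flrt3, an adhesion gene, showed the largest fold among lower genes at 10 CPM or more, from 69.1, 102 and 77.4 CPM to 12.8, 14.7 and 15.3 CPM (5.80-fold, adjusted p = 1.56e-09). Of 9 osteopontin receptor genes 4 were lower and 3 higher. The integrin genes Itga4 and Itgb1 fell 1.56-fold and 1.31-fold (Itgb1 was not called with the GC trend removed), and Itgb3 rose from 1.28 ± 0.403 to 6.54 ± 1.11 CPM. Coagulation and fibrinolysis genes were lower in 9 of 21 and higher in 6: Plaur, the urokinase receptor, fell from 745 ± 64.8 to 355 ± 14.6 CPM, while Plau, urokinase itself, rose from 30.8 ± 4.12 to 71.9 ± 3.72 CPM.

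Among immediate early and stress genes, the heat shock genes changed by the largest folds. Hspa1b (ENSMUSG00000090877, GRCm38 chromosome 17, 34956436 to 34959238, minus strand) had 6.23, 9.06 and 6.39 CPM at day 14 and 2311, 2148 and 2072 CPM at day 30. Its neighbour Hspa1a had 11.3, 8.54 and 9.44 CPM and then 1951, 1884 and 1914 CPM. The days did not overlap and differed by over 100 times in both genes (log2 8.24 ± 0.15 and 7.62 ± 0.13, adjusted p = 1.31e-16 and 1.23e-16). They encode nearly the same inducible HSP70 chaperone, and how shared reads were counted is not stated, so the split between them is uncertain. Means were 71 and 53.1 CPM after PBS and 31.4 and 47.2 CPM in interstitial macrophages at day 14. Other chaperones followed: Hsph1 rose from 30.2, 36.3 and 38.2 CPM to 317, 280.1 and 277 CPM, Dnajb1 from 46.4 ± 1.51 to 211 ± 8.92 CPM, Hsp90aa1 from 249.5 ± 18 to 917 ± 84.3 CPM, and the small heat shock gene Hspb1 from 0.281 ± 0.117 to 14.7 ± 1.93 CPM. Hspa8, the constitutive HSP70, had 2849, 2862 and 3212 CPM and then 3480.5, 3465 and 3502 CPM (adjusted p = 0.0586, and 0.0465 and 0.0213 without replicate 1 or 3 of day 14). It was also called with DESeq2, library totals alone, a non-robust fit, the PBS libraries in the fit and the GC trend removed (adjusted p from 0.00853 to 0.0472).

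The promoter windows of Hspa1b (chr17:34959239-34959488, minus strand) and Hspb1 (chr5:135887669-135887918, plus strand) are shown because these genes rose together. They are the 250 bases before the RefSeq start (GRCm38.p6), 5′ to 3′ on the gene's strand. Capitals mark GAANNTTC or TTCNNGAA, paired half-sites of the heat shock element, each of which reads the same on both strands.
Hspa1b: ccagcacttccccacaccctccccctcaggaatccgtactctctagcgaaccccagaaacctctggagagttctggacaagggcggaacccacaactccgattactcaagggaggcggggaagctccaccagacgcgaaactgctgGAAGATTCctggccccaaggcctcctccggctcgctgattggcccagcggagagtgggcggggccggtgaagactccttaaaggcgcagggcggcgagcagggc
Hspb1: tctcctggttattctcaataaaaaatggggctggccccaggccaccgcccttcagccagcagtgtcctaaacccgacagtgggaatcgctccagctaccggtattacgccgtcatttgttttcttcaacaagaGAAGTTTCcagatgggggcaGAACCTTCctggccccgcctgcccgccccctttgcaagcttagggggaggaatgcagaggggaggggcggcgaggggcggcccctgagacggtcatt
The match of Hspa1b begins 104 bases before the start, and those of Hspb1 begin 117 and 97 bases before it. The window of Hspa1a is identical to that of Hspa1b at 247 of 250 bases (98.8%), with its match at the same place. Of 32851 windows 12.8% held a match, and of the list's higher members with a window 6 of 11 did (Jun, Hspa1a, Hspa1b, Hsph1, Hspe1 and Hspd1), beside 2 of 10 lower ones. Heat shock genes were put on this list as stress genes, so these shares are no independent support. Hspa1a and Hspa1b count as separate members despite their near-identical windows. A listed gene counts with a match in any of its windows, while the 12.8% is of single windows. Such a match does not show binding of a factor.

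The chaperone genes above other than Hspb1 belong to a list of 31 immediate early and stress genes, which tissue digestion and sorting are known to induce, of which 13 were higher and 11 lower. The parts of the list did not move alike. Jun, an AP-1 subunit, had 107, 113 and 130.4 CPM and rose to 499, 458 and 473 CPM (adjusted p = 2.03e-10). Fosb, another AP-1 subunit, had 1082, 1642 and 1689 CPM and fell to 421, 413 and 398 CPM (adjusted p = 9.41e-07), and Junb fell 1.53-fold. Nr4a2, an orphan nuclear receptor induced by many stimuli, had 123, 172 and 145 CPM and fell to 37.2, 36.5 and 33.7 CPM (log2 -2.04 ± 0.12, adjusted p = 1.39e-09). Whether handling of the lungs differed between the days is not stated in the labels, and its part in these changes was not tested.

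Energy metabolism leaned lower. Glycolysis and hypoxia genes were lower in 12 of 32 (7 in the 9-library fit) and higher in 4 (2 in that fit, without replicate 2 of day 14, or without replicate 1 or 3 of day 30). Pkm, pyruvate kinase, fell from 1710.4, 1264 and 1308 CPM to 916, 1009 and 949 CPM, and Ldha, lactate dehydrogenase A, from 1120.0, 847 and 1037 CPM to 637, 707 and 709.7 CPM, with no overlap in either gene (adjusted p = 0.000747 and 0.000737). Slc2a3, a glucose transporter gene that neutrophils express strongly, rose from 2.35 ± 0.721 to 25.8 ± 1.03 CPM. Of 47 respiratory chain and ATP synthase genes 16 were lower and 1 higher, with 28 lower without replicate 2 of day 14 and 7 to 10 lower without replicate 3 of day 14 or any 1 library of day 30 (0 higher without replicate 2 of day 30). The 9-library fit gave 8 lower and 0 higher, and library totals alone 10 lower. Ndufb8, a complex I subunit, fell from 63.2, 57.9 and 62.6 CPM to 25.3, 31.5 and 26.4 CPM (log2 -1.14 ± 0.11, adjusted p = 8.23e-07).

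Mitochondrially encoded genes were lower in 10 of 12, or in 4 without replicate 1 and 6 without replicate 2 or 3 of day 30 or in the 9-library fit, and their sum ran from 17377 to 18110 CPM at day 14 and 14142 to 14254 CPM at day 30. mt-Nd6 fell from 340.3, 373 and 285 CPM to 113, 145 and 136 CPM (adjusted p = 2.24e-07), and it is encoded on the opposite strand to the other protein genes listed, while the counting is not stated to use strand. The mitochondrial ribosomal RNAs went the other way: mt-Rnr1 had 277, 235 and 314 CPM and then 2218, 1666 and 1724 CPM (log2 2.76 ± 0.13, adjusted p = 7.72e-10), and mt-Rnr2 rose 3.09-fold. Libraries were made with polyA selection, and the part of that selection in these values was not tested.

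Redox and metal genes were mixed. Antioxidant and Nrf2-type genes had 8 of 31 higher (5 without replicate 2 of day 30) and 9 lower, and 4 each way in the 9-library fit. Nfe2l2, the gene of Nrf2, fell from 365, 410.1 and 435 CPM to 199.5, 207 and 219 CPM, and Gstm1, a glutathione transferase with close relatives in the genome, rose from 71.5, 102 and 84.7 CPM to 233, 229 and 230.1 CPM (adjusted p = 1.06e-06 and 7.65e-08). Neither gene had overlapping groups. Iron and haem genes were higher in 11 of 23 and lower in 4 (2 in the 9-library fit), with 7 higher without replicate 1 or replicate 3 of day 30. Slc11a1, the phagosomal metal transporter NRAMP1 of macrophages and neutrophils, rose from 19.6, 22.6 and 19 CPM to 69.5, 71 and 77.5 CPM (log2 1.83 ± 0.11, adjusted p = 2.06e-09), and Alas1, the first enzyme of haem synthesis, from 338 ± 42.9 to 515 ± 12.8 CPM. Ferritin heavy chain Fth1 had 10274 ± 429.6 and then 10715 ± 466 CPM (adjusted p = 0.639).

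Of the interferon-stimulated genes, 10 of 38 were lower and 4 higher (5 lower and 2 higher without replicate 3 of day 30, 3 and 2 in the 9-library fit), with 5 lower once the GC trend was removed. The cytosolic DNA sensor family members Ifi204 and Ifi209 fell 2.13-fold and 2.27-fold, to 44.7 ± 3.95 and 13.7 ± 1.43 CPM, and near-identical copies make single members uncertain. Eicosanoid genes had 4 of 23 higher (7 without replicate 1 of day 14) and 6 lower (3 without that replicate or replicate 2 of day 30), with 2 higher and 3 lower in the 9-library fit, and the prostacyclin receptor Ptgir up from 15.3, 23.4 and 23.8 CPM to 52.4, 54.3 and 57.2 CPM (adjusted p = 2.01e-06). The eicosanoid shares were 17.4% higher and 26.1% lower, beside 16.8% and 15.6% over all genes. Cell cycle genes had 9 of 46 higher and 6 lower, shares of 19.6% and 13% that lie near those of all genes, with 4 higher without replicate 3 of day 30, 5 higher and 3 lower without replicate 2 of day 30, and 2 lower without replicate 3 of day 14 or replicate 1 or 3 of day 30, 3 lower with the GC trend removed, and 2 in the 9-library fit or with library totals alone. Mki67, the proliferation marker, had 83.1, 123 and 94.6 CPM and then 91.3, 80.3 and 83.9 CPM, with overlap (adjusted p = 0.167, and 0.0241 without replicate 1 of day 14).

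**Figure D5:**
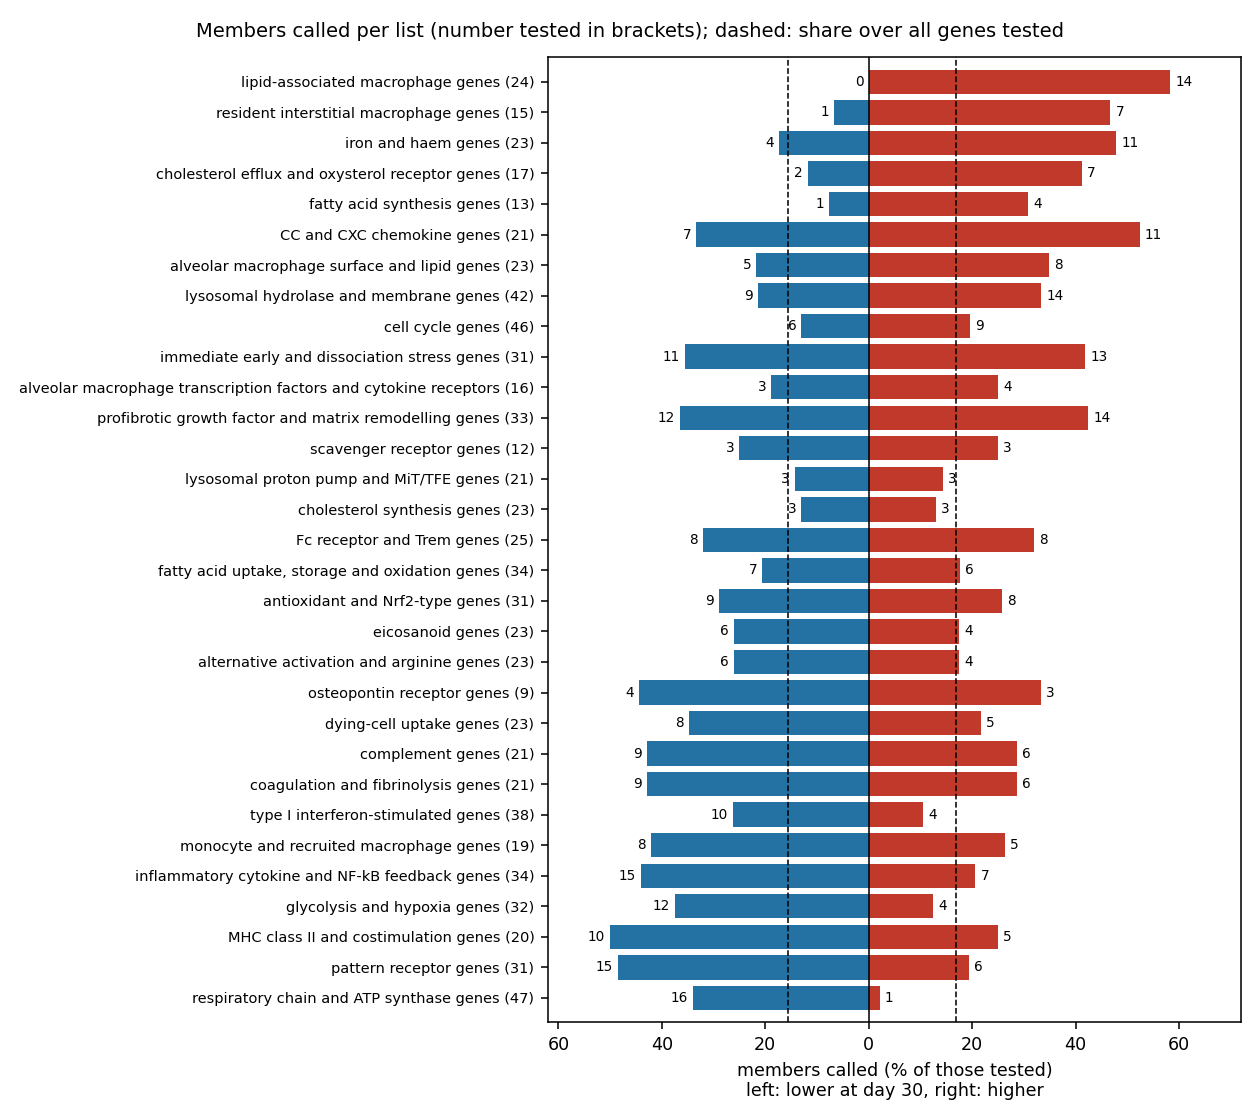
Bars give the percent of each list's tested members called lower (blue, left) and higher (red, right) at day 30, with the number called at the bar's end, the number tested in brackets and dashed lines at the share over all genes (15.6% and 16.8%). Lipid-associated macrophage genes (14 higher, 0 lower) stand at the top and respiratory chain genes (1 higher, 16 lower) at the bottom.

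The 31 pathway lists can be read against those background shares, which differ with level. Of the 2399 higher calls 1079 had a mean under 10 CPM at day 30, and of the 2222 lower calls 222 had one at day 14. In the GC bins of genes at 10 CPM or more, 5.75% to 24.2% were higher and 12.9% to 34.4% lower. No share matched to the level of each list was computed. The lists were chosen with earlier results of these data known, so their shares are a description and no independent support. Higher calls reached 58.3% of tested members in the lipid-associated list, 52.4% in the chemokine list and 47.8% in the iron and haem list. Lower calls reached 50% in the MHC class II list, 48.4% in the pattern receptor list, 44.4% in the osteopontin receptor list (4 of 9) and 44.1% in the inflammatory list. The 9-library fit lowered the counts behind 4 of these shares by over 1.5 times, those of the lipid-associated (8), chemokine (6), MHC class II (3) and pattern receptor (9) lists. Because bulk RNA was measured, fewer cells of a type and less RNA per cell cannot be told apart in any of these changes.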

How the data were processed

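Bulk RNA-seq (polyA selection, paired-end reads) was measured in the 6 libraries compared. The authors deposited raw counts of reads per gene. Per the submitters' processing notes, FastQC 0.11.5, Trimmomatic 0.38, HISAT2 2.1.0, SAMtools and featureCounts 1.6.3 were used with GRCm38. The annotation release, strand setting and treatment of multi-mapping reads are not given in the sources used here.

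From the counts, edgeR 4.0.16 (R 4.3.3) normalised by TMM, filtered genes with filterByExpr (minimum count 10) and ran a robust quasi-likelihood F test of day 30 against day 14 without covariates. P-values were Benjamini-Hochberg adjusted over all 14255 genes, and a gene was called at an adjusted p under 0.05. The SE of a log2 fold change is its size divided by the square root of F. Levels of PBS and interstitial libraries are CPM of the total count. DESeq2 1.42.0 served as an alternative, and limma 3.58.1 was loaded with edgeR but gave no fit of its own. Fits were tested on simulated counts.

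The members and the 31 pathway and 14 other lists were chosen with earlier results of these data known. Genes were named by rule: Spp1, Siglecf and Itgam, the 15 largest called changes each way at 10 CPM or more with no overlap, and from each list the 4 smallest p-values and the 2 highest levels. Others, among them Gpnmb, Marco, Jun, Fosb, Hsp90aa1, mt-Rnr1 and mt-Rnr2, were named after their values were seen. Promoters are RefSeq windows, with transcript GC content from the GRCm38 annotation.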

Additional observations from a re-analysis of the deposited data

How the results depend on the processing

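The main counts were 2399 higher and 2222 lower (51.9% higher). Library totals alone gave 2776 and 1641 (62.8% higher), DESeq2 2229 and 2105, and removal of the GC trend 2611 and 1622 (61.7% higher). With all 9 libraries of the table, which adds the interstitial macrophages, the counts were 1764 and 1423. Leaving out 1 library at a time gave 1819 to 2415 higher and 1469 to 2245 lower, both minima without replicate 3 of day 30. In these alternatives 0 of the 4621 called genes were called in the opposite direction. Fitting without markers of other cells, immunoglobulin and heat shock genes, chosen after seeing the data, gave 2219 and 2142.

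The replicate numbers did not pair the libraries: deviations of same-numbered libraries correlated at -0.07, -0.08 and 0.06. With replicate number as a block the counts were 2234 and 1973. Of 242 genes named by rule 208 were called, and 167 of them under every alternative. Spp1 and Mrc1 passed the test with the block (adjusted p = 0.0106 and 0.00889). The block also left 1 reporter and sort gene, 3 cell cycle genes and 0 endothelial markers lower. Spp1 passed without a filter on low counts (0.000152), with a non-robust fit (0.035) and with the PBS libraries in the fit (0.0475). Of the counts of list members, 1390 lay within 1.5 times their main value under an alternative and 132 did not. At low levels depth limits the calls, and the 888 genes that rose at least 2-fold to under 10 CPM rest on few counts at day 14.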
